A study of Mus musculus with 6 samples.

Results

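The phagocyte NADPH oxidase was followed through the RNA of 5 of its subunits, Cybb, Cyba, Ncf1, Ncf4 and Rac2. They were taken by gene name from the deposited count table, in which all 5 are present among 54532 genes, and all 5 passed the filter on low counts that left 14883 genes for testing. Mouse CD8T cells were isolated from spleen with a kit, stimulated on beads that carry anti-CD3 and anti-CD28, and sequenced after 24 hr of coculture with macrophages of the peritoneum. By the methods, injected thioglycolate had drawn the macrophages there, and IFN-γ at 10 ng/mL had activated them over 12 hr. The paper also treated monocytes with GM-CSF, with or without DB2313, and does not state whether such cells served in the coculture. Macrophages of the control group (3 libraries) were cultured without DB2313, and those of the DB2313 group (3 libraries) with it, at 14 nM by the methods. DB2313 is a small molecule that inhibits Spi1, the transcription factor also called PU.1. Strain and age of the donor mice were not given in the sources used here, GEO's labels name dendritic cells in place of macrophages, and no source names whether the libraries of a group came from separate cultures, so that p-values measure only the spread between these libraries.

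The oxidase is the enzyme with which neutrophils, macrophages and other phagocytes turn oxygen into superoxide. Cybb (gp91phox, or Nox2) is the catalytic chain, which passes electrons from NADPH across the membrane, and Cyba (p22phox) is the partner chain that holds it stable there. Ncf1 (p47phox) and Ncf4 (p40phox) wait in the cytosol and join the membrane pair once the cell is stimulated, together with the GTPase Rac2. Inherited loss of one of the phox subunits causes chronic granulomatous disease, in which phagocytes take up microbes but fail to kill many of them. Cybb RNA is typical of phagocytes and B cells, whereas Cyba and Rac2 are made in many kinds of leukocytes, T cells included.

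Spi1 and interferon-regulated factors are known regulators of several of these genes, so the promoters are shown before the values. RefSeq windows of GRCm38.p6, from 250 bases before to 50 bases after the start site, were held for 3 of the 5 subunits: Cybb at chrX:9469275-9469574, Cyba at chr8:122432891-122433190 and Ncf1 at chr5:134229576-134229875, all on the minus strand. Each is written 5′ to 3′ along the gene, and capitals mark GGAA on either strand (TTCC on the strand shown), the core that Spi1 and the other ETS factors bind.
Cybb: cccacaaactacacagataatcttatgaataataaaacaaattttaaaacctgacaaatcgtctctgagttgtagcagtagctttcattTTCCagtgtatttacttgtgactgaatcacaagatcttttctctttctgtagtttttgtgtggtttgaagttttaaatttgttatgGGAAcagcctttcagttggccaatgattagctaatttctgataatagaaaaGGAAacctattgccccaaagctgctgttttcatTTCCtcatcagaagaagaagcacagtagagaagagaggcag
Cyba: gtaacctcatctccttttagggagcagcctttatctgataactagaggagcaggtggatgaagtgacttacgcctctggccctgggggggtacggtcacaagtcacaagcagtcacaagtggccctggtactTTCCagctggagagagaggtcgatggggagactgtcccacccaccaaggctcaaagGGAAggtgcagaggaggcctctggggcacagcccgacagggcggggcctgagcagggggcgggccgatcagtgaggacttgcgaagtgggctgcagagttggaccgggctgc
Ncf1: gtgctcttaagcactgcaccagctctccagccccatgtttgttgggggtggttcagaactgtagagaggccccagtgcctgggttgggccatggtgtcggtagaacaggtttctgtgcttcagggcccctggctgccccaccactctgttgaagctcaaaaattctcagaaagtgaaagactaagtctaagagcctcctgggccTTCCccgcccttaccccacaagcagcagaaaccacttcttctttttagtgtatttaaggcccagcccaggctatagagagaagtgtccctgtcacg
GGAA occurred 4 times in the Cybb window, 2 times in the Cyba window and once in the Ncf1 window, which sets none of them apart, as 96% of all 32851 promoter windows held it. The interferon-stimulated element, GAAA and GAAA with any 2 bases between them, found in 3.44% of all windows on either strand, matched 3 times in the Cybb window. Its match nearest the start site, gaaaaggaaa, ran from -29 to -20 and overlapped one of the GGAA cores. In the Ncf1 window the element matched once, as gaaagtgaaa from -82 to -73, and in the Cyba window it had no match. The ETS-IRF composite, GGAA and GAAA with any 2 bases between them, in 2.72% of all windows, matched the Cybb window once, from 4 to 13 bases past the start, and overlapped the last GGAA core. G and C made up 35.3% of the Cybb window, against 60.7% for Cyba and 54% for Ncf1. The shares of all windows were not matched for base composition, so they do not show whether the Cybb matches exceed those of similar windows. GAGGAAGT (a Spi1-type site, in 3.2% of windows), TTNNGNAA (a C/EBP-type site, in 40.7%) and TATAAA (in 13.6%) had no match in the 3 windows. A match is a run of letters and not a measured binding site, and no binding was measured in these libraries.

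**Figure D1:**
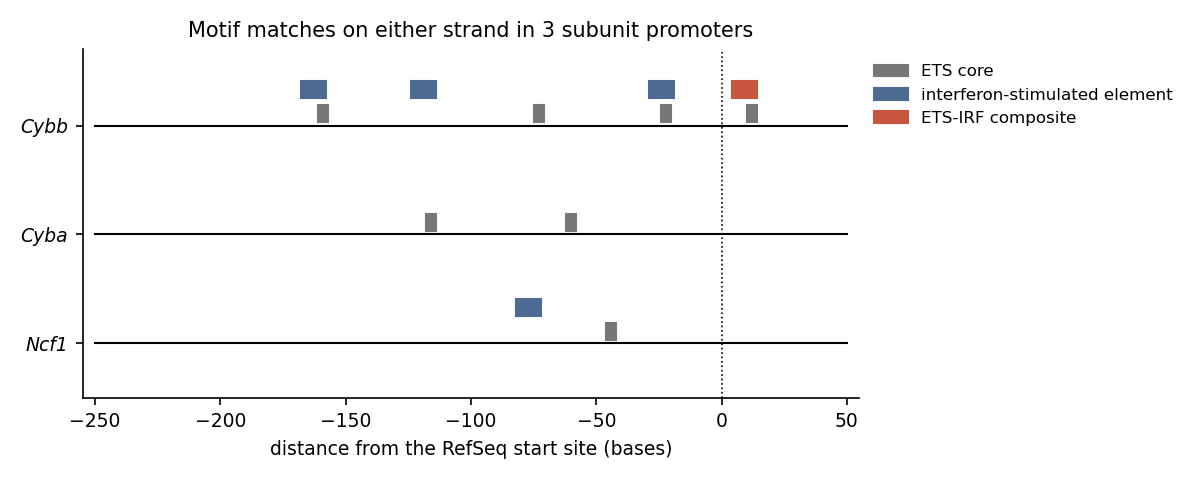
Matches on either strand of the ETS core, the interferon-stimulated element and the ETS-IRF composite, by distance in bases from the RefSeq start site (dotted line) of Cybb, Cyba and Ncf1. The Cybb window holds 4 cores, 3 interferon-stimulated elements and 1 composite, the Cyba window 2 cores, and the Ncf1 window 1 core and 1 interferon-stimulated element.

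The 6 libraries held 16611975 to 18596217 counts on genes, and replicates of a group differed by more than sampling noise (a chi-square per gene of 2.48 to 3.81 within the groups and 46.9 to 50.5 between them). Markers of the cocultured cells were counted beside those of T cells. The 20 T cell markers took 0.315% to 0.318% of all counts in the control libraries and 0.510% in each DB2313 library, and all 20 rose (edgeR). The 25 macrophage markers, none of them at 0, took 1.796% to 1.834% in the control group and 0.946% to 0.972% in the DB2313 group. Of these markers 22 fell and 3 rose. By the same test, 24.6% of all tested genes were lower and 20.8% higher at an adjusted p below 0.05. Lyz2, a lysozyme of myeloid cells, went from 7691 ± 134 to 2081 ± 36.6 CPM and Gpnmb, a membrane glycoprotein, from 1800 ± 7.01 to 1439 ± 32.0 CPM (SD, n = 3 each). Trbc2, a constant chain of the T cell receptor, went from 349.9 ± 11.0 to 508.3 ± 34.0 CPM and Lck, a kinase of that receptor, from 338.4 ± 4.55 to 527.2 ± 15.2 CPM (SD, n = 3 each). CPM is the count of a gene scaled to a common library total, with TMM factors. In bulk RNA, fewer cells of a type and less RNA per cell cannot be told apart, and no library of CD8T cells alone was analysed here, so the counts of the oxidase genes were not assigned to a cell type.

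Between the groups, 4 of the 5 subunits fell and 1 rose in the DB2313 group with TMM scaling, whereas scaling to macrophage markers turned the sign of Cyba, Ncf1 and Ncf4 and scaling to T cell markers that of Rac2. Cybb, the catalytic chain, fell to 25.0% of its control level, Cyba, Ncf1 and Ncf4 fell to between 67.2% and 72.1%, and Rac2 rose to 109.8%. Among all tested genes, 24.6% were lower and 20.8% higher at an adjusted p below 0.05, which is 45.4% in either direction. Of these calls 54.2% were lower with TMM, against 36.6% with library size and 41.8% with upper quartile scaling. With TMM scaling only Cybb also passed an absolute log2 fold change of 1, whereas 0 subunits passed it on the lower side with macrophage marker scaling (Cybb was at -0.998) and 4 with T cell marker scaling. That fold was passed by 5.3% of tested genes on the lower side and 1.38% on the higher, with TMM. For each of the 5 subunits every control library lay on one side of every DB2313 library, as for 53.1% of tested genes. The values that follow are CPM, with adjusted p-values from edgeR's quasi-likelihood test.

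**Figure D2:**
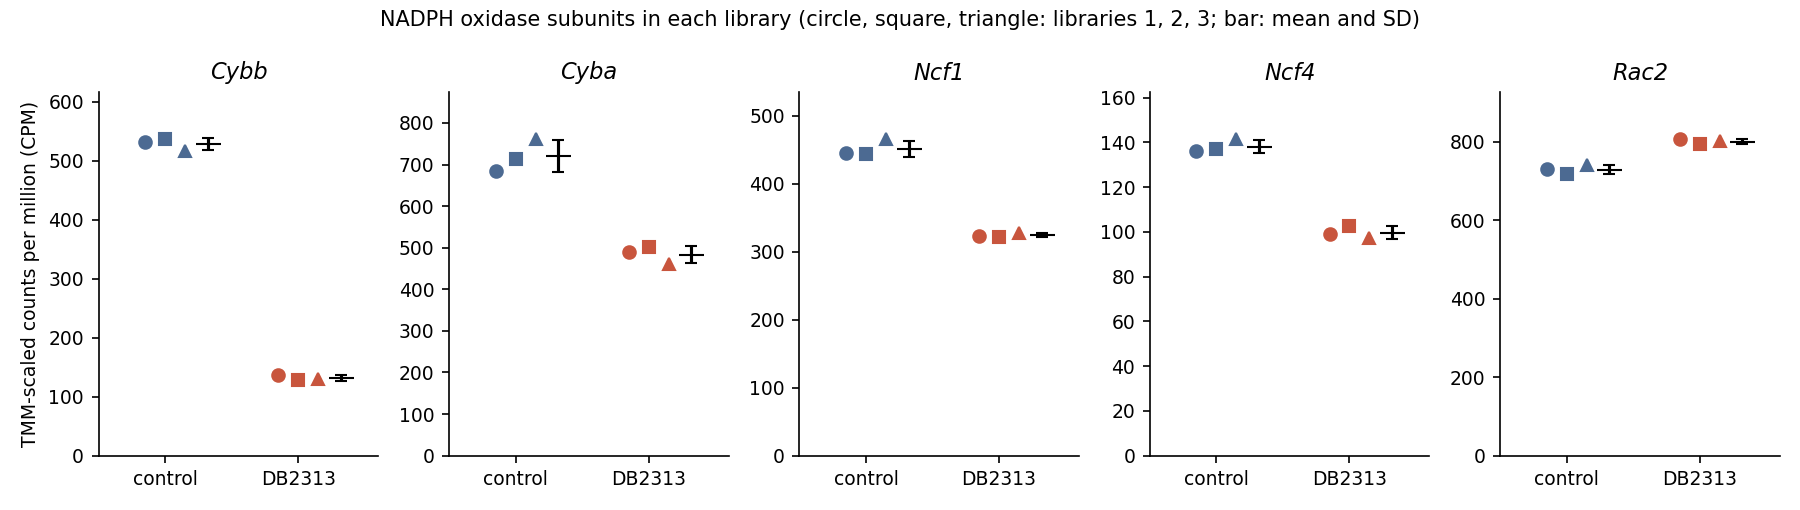
TMM-scaled CPM of the 5 subunits in each library, 1 panel per gene with an axis that starts at 0; points are libraries and bars the mean and SD of 3. The DB2313 libraries lie at 128.3 to 136.9 CPM for Cybb against 516 to 535.8 in the control group, and above the control libraries only for Rac2.

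Cybb (ENSMUSG00000015340) is a protein-coding gene on the minus strand of chromosome X of GRCm38, from 9435252 to 9487771. The annotated span reaches further upstream than the start site of the promoter window at 9469324. In the control libraries Cybb was at 531.5, 535.8 and 516 CPM, and in the DB2313 libraries at 136.9, 128.3 and 129.9 CPM. The lowest control library was 379 CPM above the highest DB2313 library, and the libraries within a group lay close together. The mean went from 527.8 ± 10.4 to 131.7 ± 4.56 CPM (SD, n = 3 each), a log2 fold change of -2.002 (standard error 0.04, adjusted p = 4.75e-22). Of the 14883 tested genes, 173 had a larger fall, and 1 of these was at least as abundant as Cybb in the control group.

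Cyba (ENSMUSG00000006519) lies on the minus strand of chromosome 8 from 122424776 to 122432930. Its control libraries were at 684.3, 714.1 and 760.3 CPM and its DB2313 libraries at 488.9, 501.2 and 460.7 CPM. Both groups varied more than those of the other subunits, with coefficients of variation of 5.33% and 4.30%, yet a gap of 183 CPM separated them. The log2 fold change of Cyba was -0.57 (standard error 0.04, adjusted p = 1.43e-11), so that the partner chain kept more of its control level than the catalytic chain did. The gene Gm20388 spans the whole Cyba locus on the opposite strand and had no counts in any library.

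Ncf1 and Ncf4 encode soluble subunits, the organizer that docks on Cyba and a subunit that reads a phosphoinositide on phagosomes. Ncf1 (ENSMUSG00000015950, minus strand of chromosome 5 from 134220053 to 134229625) was at 444.8, 443.3 and 465.1 CPM in the control libraries and at 323.7, 321.8 and 327.1 CPM in the DB2313 libraries. The log2 fold change of Ncf1 was -0.48, with a standard error of 0.03 and an adjusted p of 2.31e-11. Part of Ncf1, 4303 bases, overlaps Gtf2ird2 on the opposite strand. That gene had 387 to 446 counts per library and a log2 fold change of 0.08 (standard error 0.08, adjusted p = 0.420), and as the use of strand in counting is not stated, reads there cannot be told apart. Ncf4 (ENSMUSG00000071715, plus strand of chromosome 15 from 78244801 to 78262580) was at 136.2, 136.9 and 141.3 CPM in the control libraries and at 99.0, 102.7 and 97.0 CPM in the DB2313 libraries. With a log2 fold change of -0.47 (standard error 0.04, adjusted p = 6.56e-10), Ncf4 and Ncf1 fell by nearly the same amount.

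Rac2 (ENSMUSG00000033220) lies 296586 bases downstream of Ncf4 on the same chromosome, on the minus strand from 78559167 to 78572783. Beyond the oxidase it serves the actin cytoskeleton of blood cells, and it was the only subunit that rose with TMM scaling. It was at 729.2, 716.3 and 740.4 CPM in the control libraries and at 805.4, 793.3 and 800.4 CPM in the DB2313 libraries. The groups were 52.9 CPM apart at their nearest libraries, which is small beside the level of the gene but larger than the SD of either group (12.1 and 6.06 CPM). The log2 fold change of Rac2 was 0.13, with a standard error of 0.03 and an adjusted p of 0.000807, below the 0.62 that was the median rise of the T cell markers.

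Per length of the gene, as CPM per kilobase, the order of levels changed at its lower end. In the control group Cyba was highest at 693 ± 36.9, followed by Rac2 at 235 ± 3.90, Ncf1 at 123 ± 3.33, Cybb at 90.9 ± 1.79 and Ncf4 at 68.4 ± 1.37 (SD, n = 3). In the DB2313 group the levels per kilobase were 465 ± 20 for Cyba, 258 ± 1.95 for Rac2, 88.5 ± 0.732 for Ncf1, 49.3 ± 1.41 for Ncf4 and 22.7 ± 0.785 for Cybb (SD, n = 3). Cybb thus passed from above Ncf4 to below it per kilobase, and in neither group did the libraries of neighbours in the order overlap. This crossing rests on the annotated lengths, 5808 bases for Cybb and 2020 for Ncf4. In CPM, Cybb stayed above Ncf4 in the DB2313 group (131.7 against 99.6). In the control group Cybb was above 96.1% of tested genes per kilobase, and in the DB2313 group above 82.7%.

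Ratios of counts within a library show whether subunits changed unequally, whatever the scaling of the libraries. For every Cyba count there were 0.777, 0.750 and 0.679 Cybb counts in the control libraries and 0.280, 0.256 and 0.282 in the DB2313 libraries. The groups were far apart, with a log2 difference of the ratio of -1.43. Cybb to Ncf1 went from 1.17 ± 0.0538 to 0.406 ± 0.0145 (SD, n = 3 each), a log2 difference of -1.53. In contrast, Ncf1 to Ncf4 was 3.27, 3.24 and 3.29 in the control libraries and 3.27, 3.14 and 3.37 in the DB2313 libraries. The groups overlapped, the log2 difference was -0.0036, and it lay between -0.028 and 0.024 with each library left out. Rac2 to Rac1 was higher in each DB2313 library than in each control library, and its mean went from 2.03 ± 0.0389 to 2.77 ± 0.0980 (SD, n = 3 each), a log2 difference of 0.45. By two-sided exact permutation tests, p was 0.1 for the ratios of Cybb to Cyba, Cybb to Ncf1 and Rac2 to Rac1 (0.133 after Benjamini-Hochberg adjustment over 4 ratios), the smallest that 3 against 3 libraries allow, and 0.9 for Ncf1 to Ncf4.

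**Figure D3:**
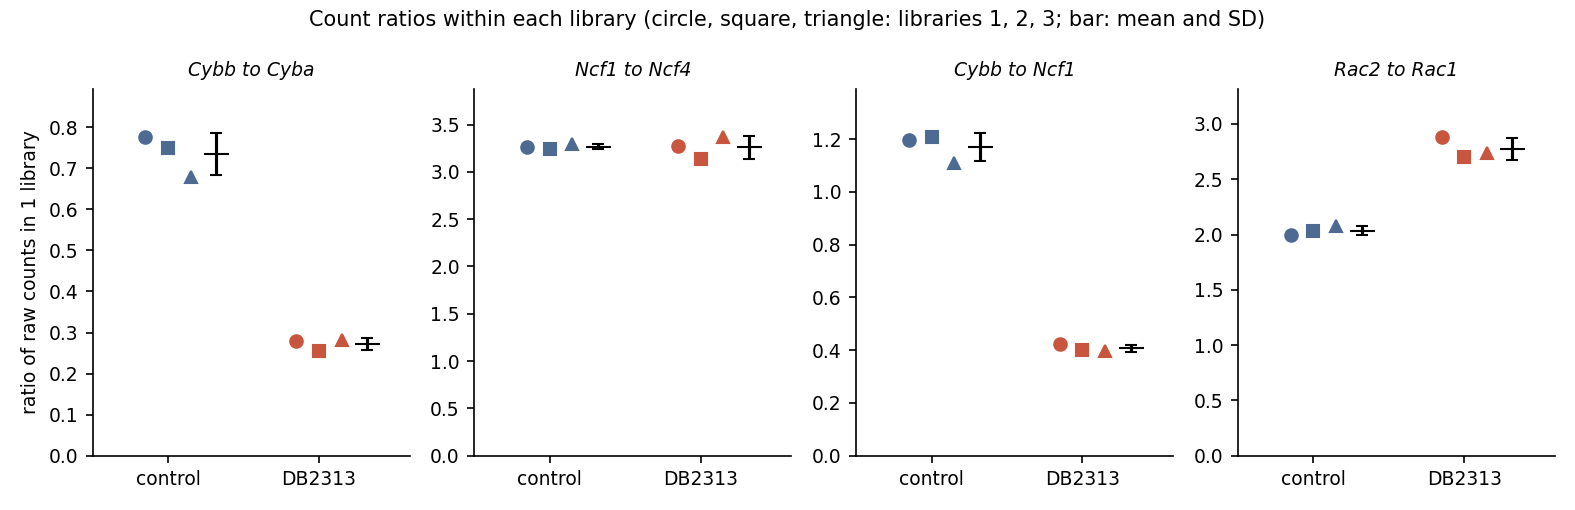
Ratios of raw counts within each library for 4 pairs of oxidase genes, with axes that start at 0; points are libraries and bars the mean and SD of 3. The DB2313 libraries lie below the control libraries for Cybb to Cyba and Cybb to Ncf1, and above them for Rac2 to Rac1. For Ncf1 to Ncf4 the groups overlap.

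The macrophage markers had a median log2 fold change of -0.82 (0.18 when the libraries were scaled to their sum) and the T cell markers one of 0.62, against 0.02 over all tested genes, so the subunits were set against both lists. With TMM scaling, single macrophage markers ranged from -2.16 to 1.44, and Cybb lay within that range. With the libraries scaled to the summed counts of the macrophage markers, which shifts the median of all genes to 1.02, Cybb still fell by 0.998 on the log2 scale (adjusted p = 1.25e-16, edgeR). On that scale the sign turned for Cyba (0.43), Ncf1 (0.53) and Ncf4 (0.53), and Rac2 was at 1.14. Of the macrophage markers, Lyz2 weighs most in that sum, at 7691 CPM in the control group and 2081 with DB2313. Gpnmb, the next, was at 1800 and 1439 CPM, and a sum without Lyz2 was not tested. With the libraries scaled to the T cell markers, which shifts the median to -0.58, Cybb was at -2.60, Cyba at -1.17, Ncf1 and Ncf4 at -1.07, and the sign of Rac2 turned (-0.46). A scaling shifts all genes alike, so the gaps between the subunits stay nearly the same on each.

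**Figure D4:**
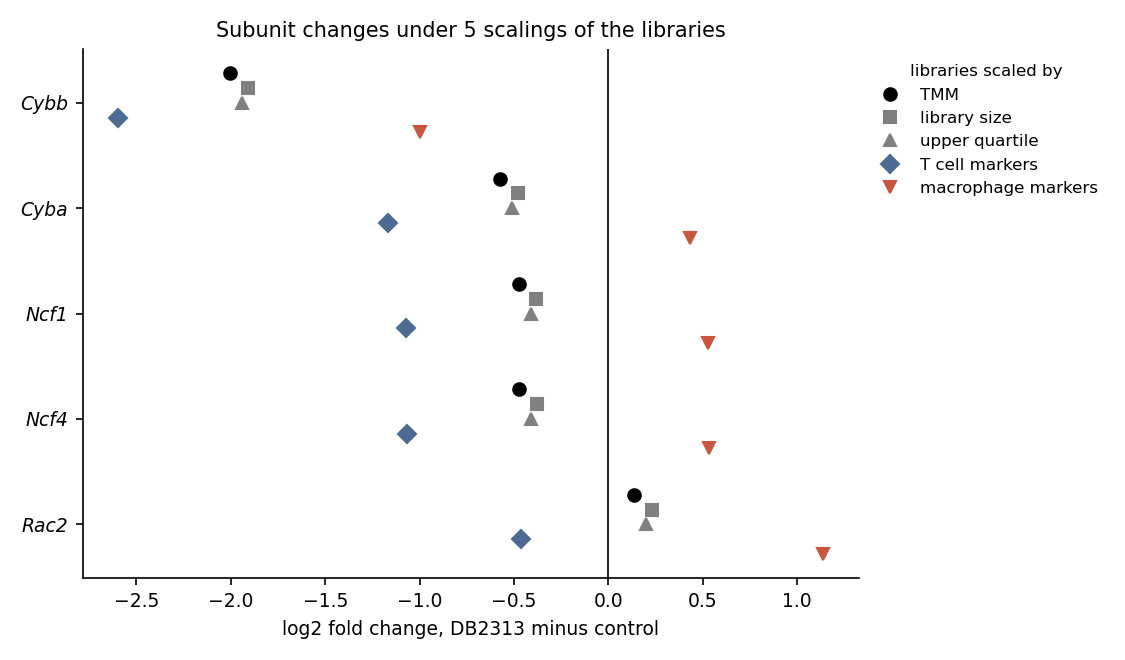
Log2 fold change (DB2313 minus control) of the 5 subunits with libraries scaled by TMM, library size, the upper quartile, the 20 T cell markers or the 25 macrophage markers. Cybb lies between -2.60 and -0.998 on all 5, whereas Cyba, Ncf1 and Ncf4 turn positive with the macrophage markers and Rac2 turns negative with the T cell markers.

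Other cells that can carry the oxidase were followed by their markers as well, and the part of these cells in the subunit changes was not tested. The marker counts below stand beside 24.6% lower and 20.8% higher among all tested genes. Of 12 neutrophil markers 11 fell and 1 rose, the median log2 fold change being -1.71, and their share of counts went from 0.218% to 0.219% in the control libraries to 0.0782% to 0.0797% in the DB2313 libraries. S100a8, a calcium-binding alarmin of neutrophils, went from 509.9 ± 7.90 to 91.0 ± 11.9 CPM and S100a9, its partner, from 512.9 ± 5.03 to 156.1 ± 7.79 CPM (SD, n = 3 each). All 5 granule genes of myeloid progenitors were higher, with a median of 0.94. On the macrophage and T cell marker scales these medians were -0.70 and -2.30 for the neutrophil list and 1.95 and 0.35 for the granule genes. Of 6 eosinophil markers 2 fell and 4 did not pass, with a median of -0.28 that was 0.73 on the macrophage marker scale, and they took at most 0.00862% of the counts of a library. Prg2, a granule protein of eosinophils, was at 56.3 ± 1.34 and 35.0 ± 4.01 CPM, and Siglecf, a surface lectin, at 13.9 ± 1.47 and 3.34 ± 0.309 CPM (SD, n = 3 each). Of 9 tested dendritic cell markers 7 fell, 1 rose and 1 did not pass (median -0.44, or 0.56 on the macrophage marker scale), and Siglech, the tenth, had no counts. Their 2 most abundant markers, Ccr7 at 888 ± 9.14 and 827 ± 16.7 CPM and Fscn1 at 592.4 ± 14.2 and 516.5 ± 15.2 CPM (SD, n = 3 each), are genes of mature dendritic cells, and Ccr7, also made by T cells, was at -0.10 on the log2 scale with TMM but did not pass with library size (adjusted p = 0.838) or upper quartile scaling (adjusted p = 0.324, edgeR). Among 8 B cell markers 4 rose, 1 fell and 3 did not pass, with a median of 0.38 that was -0.22 on the T cell marker scale. Cd79b and Cd79a, the signalling chains of the B cell receptor, stood at 13.9 ± 0.540 and 11.4 ± 1.44 CPM in the control group and at 19.1 ± 1.27 and 17.6 ± 1.78 CPM with DB2313 (SD, n = 3 each).

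Among 14 other genes of the NADPH oxidase family and its helpers, 6 were tested, 2 fell and 4 did not pass. Over all tested genes, 24.6% were lower and 20.8% higher. The median log2 fold change of these 6 genes was -0.03, which turned to 0.07 with library size, 0.04 with upper quartile and 0.98 with macrophage marker scaling. Rac1, the paralog of Rac2 that is made in nearly all cells, went from 358.2 ± 6.70 to 288.6 ± 8.10 CPM (SD, n = 3 each), a log2 fold change of -0.31 (standard error 0.03, adjusted p = 6.10e-08), so that the paralogs moved in opposite directions on the TMM scale. As they are similar in sequence, their counts may share some reads. Hvcn1, the proton channel that balances the charge the oxidase carries across the membrane, was at 84.3 ± 1.88 and 50.5 ± 4.28 CPM (SD, n = 3 each) and fell by 0.74 on the log2 scale (standard error 0.06).
Cybc1, the chaperone that Cybb and Cyba need to become stable, did not pass, at 144.9 ± 1.76 and 141.3 ± 0.509 CPM (SD, n = 3 each) and a log2 fold change of -0.04 (standard error 0.04, adjusted p = 0.445). Rap1a, a small GTPase found with the membrane pair, was at 122.7 ± 5.29 and 121.3 ± 2.15 CPM (adjusted p = 0.775, edgeR). Noxo1 and Rac3 had at most 1.79 CPM in a library and did not pass. The other catalytic chains were nearly absent from the counts, as were Noxa1, Duoxa1 and Duoxa2, which are not catalytic. Nox1 had 1 to 7 counts in a library, its activator Noxa1 1 to 5 and Duox1 0 to 2, while Nox3, Nox4, Duox2, Duoxa1 and Duoxa2 had none, which allows up to 3 counts in each library.

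**Figure D5:**
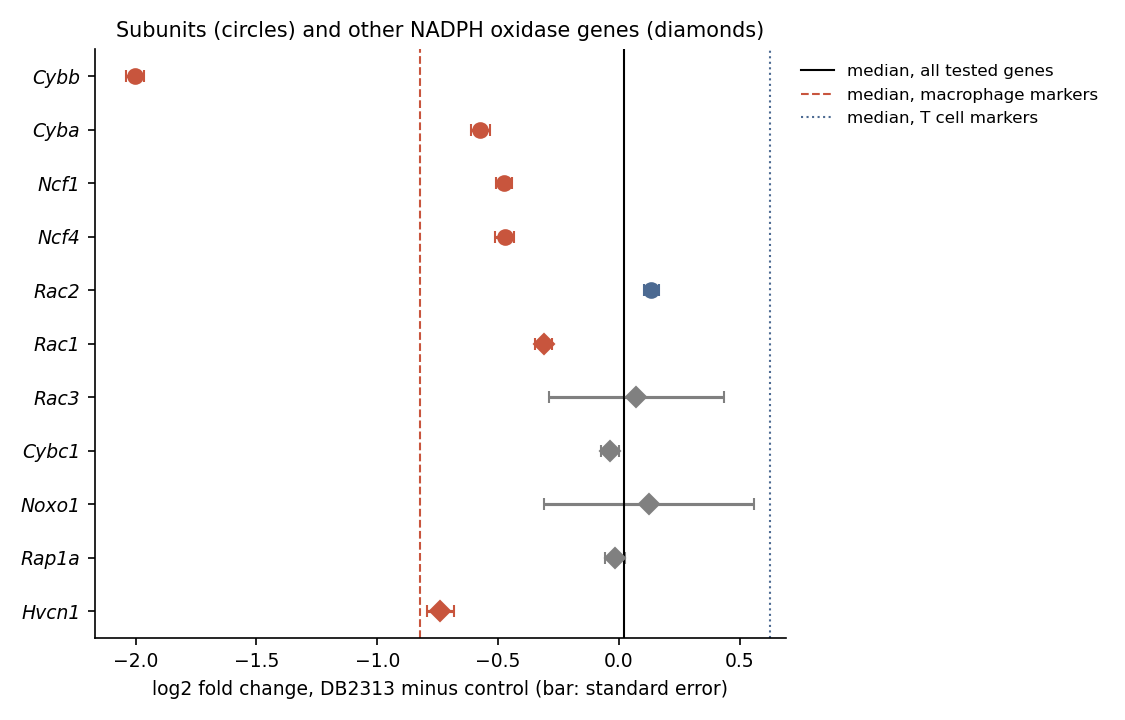
Log2 fold change (DB2313 minus control) with its standard error for the 5 subunits (circles) and the 6 tested genes among the other NADPH oxidase genes (diamonds), in red where lower and blue where higher at an adjusted p below 0.05, and grey where not passing. Vertical lines mark the medians of all tested genes (0.02), macrophage markers (-0.82) and T cell markers (0.62). Cybb alone among these 11 genes lies below the macrophage line, but within the range of the single macrophage markers (-2.16 to 1.44).

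Upstream of the oxidase stand the receptors, kinases and exchange factors that switch it on. Of 31 such genes 26 fell and 5 did not pass, against 24.6% lower and 20.8% higher among all tested genes. Their median log2 fold change was -0.52, which turned to 0.48 with macrophage marker scaling. The largest falls were in Fpr1 and Fpr2, receptors for formylated bacterial peptides, at -3.35 (standard error 0.12) and -2.29 (standard error 0.07). Itgam, the CD11b chain of the complement receptor of phagocytes, was at -1.83 (standard error 0.04) and Pak1, a kinase that active Rac binds, at -1.36 (standard error 0.07). Mean levels were 43.3 ± 3.63 and 4.27 ± 1.10 CPM for Fpr1 and 213.1 ± 1.86 and 59.8 ± 3.50 CPM for Itgam (SD, n = 3). Among the 3 most abundant genes of the list, Arhgdia, which holds Rac in the cytosol, fell by 0.15 on the log2 scale (standard error 0.03), though it did not pass with library size scaling (adjusted p = 0.112, edgeR). Its relative Arhgdib was at 0.01 and Pik3cd, a lipid kinase of leukocytes, at 0.02 (standard error 0.03 each), and neither passed, whereas with library size scaling they were at 0.10 and 0.11 and both did. Itgam is also typical of macrophages and neutrophils, and Fcgr1 stands in the macrophage list too.

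Enzymes that supply the oxidase with NADPH or handle its products were mostly lower with TMM scaling. Of 19 tested genes 13 fell, 2 rose and 4 did not pass, against 24.6% lower and 20.8% higher among all tested genes. Their median log2 fold change was -0.42, which turned to 0.58 with macrophage marker scaling. Prdx5, a peroxiredoxin that removes peroxides, fell from 491.1 ± 20.5 to 206 ± 8.82 CPM (SD, n = 3 each), a log2 fold change of -1.25 (standard error 0.04). Pgd, which makes NADPH in the pentose phosphate pathway, was at -0.85 (standard error 0.03) and Sod2, the superoxide dismutase of mitochondria, at -0.83 (standard error 0.04). The most abundant were Prdx1 at -0.55 (standard error 0.03), Gpx1, a glutathione peroxidase, at -0.80 (standard error 0.03), and Pgd. Mpo, which turns hydrogen peroxide into hypochlorous acid in neutrophil granules, rose from 148.2 ± 5.66 to 287.5 ± 6.43 CPM (SD, n = 3 each), a log2 fold change of 0.96 (standard error 0.04). Mpo and the also rising Ctsg (107.8 ± 6.43 and 203.7 ± 5.11 CPM, SD, n = 3 each) belong to the granule genes of myeloid progenitors above.

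Of 12 tested transcription factors known to act on oxidase genes, 5 fell, 2 rose and 5 did not pass. The shares over all tested genes were 24.6% lower and 20.8% higher. The median log2 fold change of the 12 factors was -0.05, which turned to 0.04 with library size, 0.01 with upper quartile and 0.95 with macrophage marker scaling. Spi1, the factor that DB2313 inhibits, was at 278.2, 289.5 and 290.1 CPM in the control libraries and at 159, 158.9 and 148.2 CPM in the DB2313 libraries. The groups did not overlap, as for 53.1% of tested genes, and the log2 fold change of the Spi1 RNA was -0.88 (standard error 0.04, adjusted p = 2.57e-15, edgeR). The macrophage markers had a median of -0.82. Irf8, the interferon regulatory factor that binds with Spi1 at ETS-IRF composite sites, fell from 332.8 ± 4.85 to 157.4 ± 2.99 CPM (SD, n = 3 each), a log2 fold change of -1.08 (standard error 0.03). Cebpe, a factor of granulocyte maturation, was at -0.56 (standard error 0.09) and Nfkb1 at -0.28 (standard error 0.03). Irf1, an interferon-responsive factor and the most abundant of the list, was at 633.7 ± 13.6 and 631.6 ± 14.3 CPM (SD, n = 3 each) and did not pass (adjusted p = 0.918, edgeR). With library size scaling Irf1 was at 0.09 on the log2 scale and passed (adjusted p = 0.0180, edgeR).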

How the data were processed

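By the methods, RNA of CD8T cells was extracted with Trizol and sequenced on an Illumina instrument, though every library also held counts of macrophage markers. The authors aligned the reads and deposited raw counts per gene without normalization. For this step the paper names LifeScope, whereas the submitters' processing notes name CASAVA 1.8, HISAT2 2.0.5 and featureCounts 1.5.0-p3, and build, annotation and strandedness are not given in the sources used here. Of 54409 genes shared with GENCODE mouse release M21, 98.3% had its GRCm38 coordinates.
Columns were matched to samples by their label, and samples were grouped by DB2313 treatment. The test was the quasi-likelihood test of edgeR 4.0.16 in R 4.3.3, after filterByExpr and TMM, with Benjamini-Hochberg adjustment over all tested genes, and standard errors were derived from the fitted change and its F value. CPM used TMM factors and full library totals of 16611975 to 18596217 counts. At the lowest count of a subunit, counting error was at most 2.39%. The floor for a count of 0 covers counting error only, and reads are not independent molecules where no molecular identifier was used. Ratios within a library were tested with exact permutation tests in SciPy 1.17.1. The scripts were tested on simulated data.
The subunits, marker lists, related gene lists and scalings to markers were chosen with earlier results of these data known. The genes named are the subunits, every other NADPH oxidase gene with a count, the 4 largest changes at 10 CPM or more and the 3 most abundant genes of each related list, the 2 most abundant markers of each list, Spi1, and the 3 genes nearest to each subunit in pattern. Some genes of the related lists are not reported here and were left out of the list counts and medians. Alternatives were DESeq2 1.42.0, other scalings and filters, protein-coding genes, a replicate block and leaving out each library.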

Additional observations from a re-analysis of the deposited data

How the results depend on the processing

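In each alternative except the scalings to markers, 4 subunits were lower and 1 was higher, and when single libraries were dropped the log2 fold change ranged from -2.03 to -1.98 for Cybb, -0.61 to -0.53 for Cyba, -0.49 to -0.45 for Ncf1, -0.49 to -0.45 for Ncf4 and 0.12 to 0.15 for Rac2. DESeq2 gave -2.004, -0.57, -0.48, -0.47 and 0.13. Scaling to macrophage markers gave 0.43 for Cyba, 0.53 for Ncf1 and 0.53 for Ncf4, so that 1 subunit was lower and 4 higher, and with the fold of 1 added 0 were lower and 1 higher. Scaling to T cell markers gave -0.46 for Rac2, so that 0 were higher, and 4 were lower with the fold added. Both scalings shift all genes alike, to 439 lower and 12973 higher genes with macrophage markers and 11570 lower and 161 higher genes with T cell markers, against 3666 and 3096 with TMM. Library size scaling gave 4932 higher genes.
The labels number the libraries of both groups, but same-numbered libraries did not deviate together (correlations of -0.011 to 0.0025 over genes), and 0 of 6 libraries correlated best with their own number. With a replicate block, Cybb was at -2.003, Rac2 at 0.13 (adjusted p = 0.00524), and 3525 genes were lower and 2917 higher, and no call on a subunit changed.
The log2 difference of the Ncf1 to Ncf4 ratio ranged from -0.028 to 0.024 with each library left out, and was above 0 without control library 3 (0.0022) or DB2313 library 2 (0.024). For the other ratios these ranges were -1.49 to -1.39 (Cybb to Cyba), -1.57 to -1.50 (Cybb to Ncf1) and 0.42 to 0.47 (Rac2 to Rac1), and a ratio of summed counts kept the direction in all 4.
For 37 other named genes, 457 of 479 comparisons outside the marker scalings kept direction and call, 3 lost the call, 3 gained it and 16 reversed. The reversed values belonged to genes that did not pass. With library size and upper quartile scaling, Cybc1 was at 0.058 and 0.028, Rap1a at 0.078 and 0.048, and Irf1 at 0.090 and 0.059, of which 0.090 passed (adjusted p = 0.0180). With a library left out, Rac3 ranged from -0.28 to 0.31, Noxo1 from -0.16 to 0.38, Rap1a from -0.041 to 0.018, Arhgdib from -0.015 to 0.026 and Irf1 from -0.020 to 0.015. The cause was not tested. Low counts limit what can be read for Noxo1 and Rac3.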

Other observations

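Over the 6 libraries, the pattern of each subunit was set against 9331 tested genes that code for protein and average 10 CPM or more, by the Euclidean distance between log2 CPM values centred on the mean of each gene. The 6 points share 2 groups, so the distance mostly reflects the size of the change. Nearest to Cybb were Acsl1 (distance 0.112), Slpi (0.120) and Chil1 (0.132). Acsl1, an acyl-CoA synthetase, went from 113.9 ± 3.72 to 27.8 ± 1.26 CPM (SD, n = 3 each), a log2 fold change of -2.04. Slpi, an inhibitor of neutrophil elastase, went from 72.4 ± 1.81 to 17.6 ± 0.429 CPM (SD, n = 3 each).
Nearest to Cyba were Marcksl1 (0.0495), Atp6v0d1 (0.0557) and Adap1 (0.0716), with log2 fold changes of -0.58, -0.59 and -0.53. Nearest to Ncf1 were Ndst2 (0.0443), Gbp5 (0.0517) and Neurl3 (0.0532). Gbp5, an interferon-induced GTPase, was at 388.5 ± 2.96 and 274.5 ± 2.11 CPM (SD, n = 3 each). Nearest to Ncf4 were Ucp2 (0.0276), Syngr2 (0.0434) and Ptpn1 (0.0497), and nearest to Rac2 were Adrm1 (0.0313), Prkar1a (0.0345) and Rtcb (0.0372), whose log2 fold changes were between 0.11 and 0.13. None of the 5 lists shared a gene with another, which says little, as each held only the few nearest of many genes.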
